A study of Homo sapiens with 30 samples.

Results

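The PAX genes encode transcription factors that bind DNA through a paired domain, and the human family has 9 members, PAX1 to PAX9. All 9 were taken by name from the RefSeq annotation of GRCh38.p14, out of 20037 protein-coding genes on chromosomes 1 to 22, X and Y, with no measured value in the rule. The data were CUT&RUN peak lists from neural progenitor cells of the human embryonic stem cell line H9, grown as a monolayer in medium with N2, B27 and FGF. In CUT&RUN, a nuclease brought in by an antibody cuts out the DNA that its target protein occupies. Both groups used here were wild type at RING1 and RNF2, with no edited allele and no treatment, and they differed in the antibody: 2 libraries with an antibody against RING1 and 2 with an antibody against RNF2. The edited genotypes of the series, and the IgG and H2AK119ub1 libraries, were not analysed here. The 4 lists form pairs of 1 RING1 and 1 RNF2 list, called set A and set B, and no label ties either set to replicate 1 or to a separate culture. The lists hold no RNA, so neither PAX expression nor the labelled cell type could be checked from them.

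RING1 and RNF2 are alternative catalytic subunits of Polycomb repressive complex 1 (PRC1), which attaches a single ubiquitin to histone H2A at silenced developmental genes. The complex often sits in broad domains over regulators of lineages that a cell has not taken. PAX6 is a defining factor of neural progenitors and of the eye, and it also acts with PAX4 in pancreatic islets. PAX3 and PAX7 act in the dorsal neural tube, neural crest and muscle precursors. PAX2, PAX5 and PAX8 share an early role at the midbrain-hindbrain boundary and later serve kidney and optic stalk, B cells, and thyroid and kidney. PAX1 and PAX9 act in the sclerotome and in derivatives of the pharyngeal pouches.

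Since CG dinucleotides are a known feature of DNA that recruits PRC1, the promoter sequences of 3 members are shown for PAX6, for PAX4, the member with no peak, and for PAX5, which had the most CG at its first start. Each runs 5′ to 3′ on the gene's own strand, from 250 bases before to 50 bases after the most upstream annotated start (RefSeq, GRCh38.p14), and capitals mark CG. PAX6 is at chr11:31817912-31818211, PAX4 at chr7:127618093-127618392 and PAX5 at chr9:37034219-37034518, all on the minus strand.
PAX6: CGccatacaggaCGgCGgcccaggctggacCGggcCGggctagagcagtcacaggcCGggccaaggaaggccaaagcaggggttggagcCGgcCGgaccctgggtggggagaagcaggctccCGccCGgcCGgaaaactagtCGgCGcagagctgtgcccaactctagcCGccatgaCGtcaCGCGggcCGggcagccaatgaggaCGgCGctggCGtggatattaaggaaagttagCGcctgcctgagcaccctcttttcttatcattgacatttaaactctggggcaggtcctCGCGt
PAX4: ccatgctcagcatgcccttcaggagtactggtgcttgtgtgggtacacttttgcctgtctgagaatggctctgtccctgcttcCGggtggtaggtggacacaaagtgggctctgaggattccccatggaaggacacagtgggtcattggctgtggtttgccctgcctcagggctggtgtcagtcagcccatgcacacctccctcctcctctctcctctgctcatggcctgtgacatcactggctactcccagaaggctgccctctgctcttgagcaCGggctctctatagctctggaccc
PAX5: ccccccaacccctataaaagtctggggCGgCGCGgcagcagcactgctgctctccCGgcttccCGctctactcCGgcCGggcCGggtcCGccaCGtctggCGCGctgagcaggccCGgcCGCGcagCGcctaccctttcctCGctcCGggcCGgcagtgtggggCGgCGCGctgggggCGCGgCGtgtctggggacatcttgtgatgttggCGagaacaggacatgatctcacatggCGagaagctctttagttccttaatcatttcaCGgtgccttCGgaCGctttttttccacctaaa

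The PAX6 window held 24 CG and the PAX5 window 30, against 2 in the PAX4 window. Because CG reads the same on both strands, 1 count covers both. Of 15843 protein-coding genes with such a window, 45.6% had at least as many CG as PAX6, 29.9% as many as PAX5 and 94.2% as many as PAX4. Counts for the other members were 21 for PAX3 and PAX7, 19 for PAX9, 14 for PAX2 and 13 for PAX8. The 8 members with a window had a median of 20 CG, beside 22 over all genes, and 2 of them lay above that median. PAX promoters were thus not richer in CG than those of other genes in these 300 bases, and PAX4 was the member with the fewest. The other 8 starts of PAX6 had 5 to 32 CG.

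**Figure D1:**
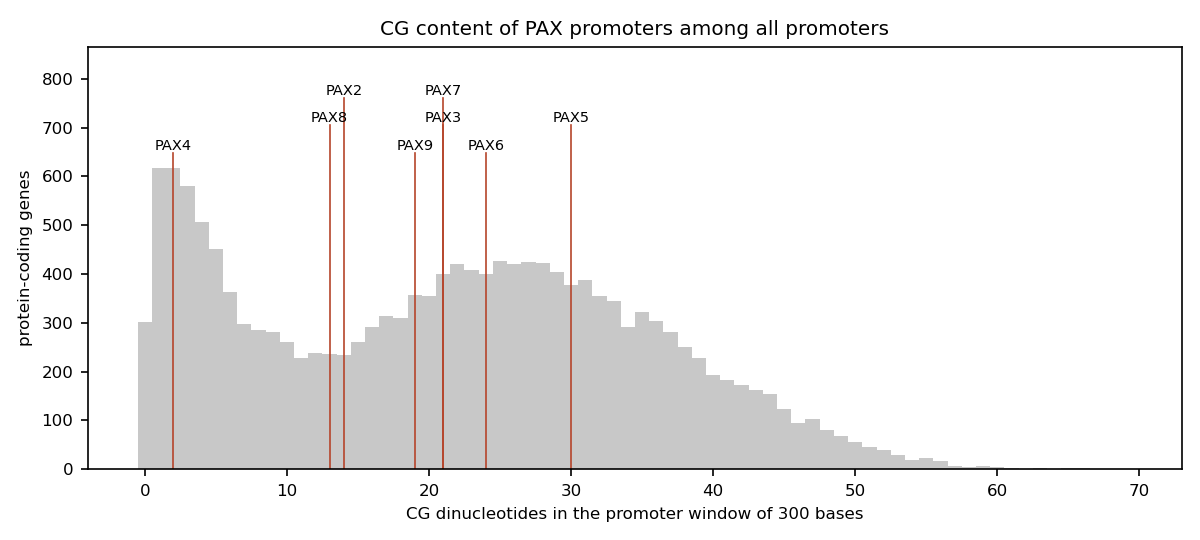
Number of protein-coding genes (vertical axis) by the count of CG dinucleotides in the most upstream promoter window of 300 bases (horizontal axis), with a line for each of the 8 PAX genes that have a window. PAX4, at 2, stands in the low mode of the distribution and PAX5, at 30, is the highest of these 8 windows.

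PRC1 peaks lay at 8 of the 9 PAX genes. A gene was assigned every peak that overlapped its body or the 2 kb beyond either end by at least 1 bp. By this rule RING1 was at 8 members in set A and 7 in set B, where 50.5% and 1.58% of all protein-coding genes had a peak. RNF2 was at 8 members in both sets, where 60.7% of all genes had a peak in set A and 25.2% in set B. Both RNF2 lists held the same 8 members (23.9% of all genes), and both RING1 lists held 7 (1.57%). Those 7, PAX1, PAX2, PAX3, PAX5, PAX7, PAX8 and PAX9, were in all 4 lists, as were 1.52% of all genes. PAX6 was in every list but RING1 of set B, a combination shared by 20.4% of all genes. PAX4 had no peak in any list, as was the case for 35.3% of all genes. The counts for set A lists, in which most or about 1 in 2 of all genes were called, separate PAX genes from other genes little, and those for RING1 of set B the most. PAX windows were longer than most, with a median of 66925 bp beside 28115 bp over all genes, and a longer window can meet more peaks.

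The lists differ in length, with 12891 RING1 and 16263 RNF2 peaks in set A and 659 RING1 and 5901 RNF2 peaks in set B, so widths and folds were ranked within a list only. The fold is the authors' enrichment of signal over background for a peak. With only the 659 peaks of lowest q-value from every list, RING1 was at 6 PAX genes in set A (3.94% of all genes) and RNF2 at 7 (4.15%) and, for set B, at 8 (3.78%). The sources used here state no read depth, and whether depth accounts for a missing peak was not tested. With 2 lists per antibody and members taken by name, the counts below were described and not tested.

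PAX6 lay under 1 of the widest RNF2 domains of either list. The gene runs on the minus strand of chromosome 11 from 31817961 down to 31789026 (hg38). In set A a single RNF2 peak of 32520 bp covered 31798003 to 31830522, with a fold of 11.2, and ranked 37th of 16263 by width. In set B the main RNF2 peak was 33514 bp wide, from 31797634 to 31831147, with a fold of 7.98, and ranked 12th of 5901. Both domains began 12.6 to 13.2 kb upstream of the most upstream start, covered all 9 annotated PAX6 starts, and ended 9.0 and 8.6 kb short of the 3′ end of the gene. The set B list also held a second RNF2 peak of 406 bp in the uncovered 3′ part, with a fold of 3.18.

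The edges of the PAX6 domain were nearly the same in both sets. The 32520 bp called in set A were all called in set B, and made up 95.9% of the bases called there. PAX8 had the same property, since 100% of its set A bases were called in set B. At the other 6 members with peaks, set B recovered between 35.1% (PAX3) and 74.3% (PAX9) of the RNF2 bases of set A.

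RING1 of set A followed the PAX6 domain in pieces. A main peak of 21460 bp, with a fold of 9.49, ran from 12.4 kb upstream to 9.0 kb downstream of the start. A second of 4958 bp (fold 5.64) lay 10066 to 15023 bp downstream, over 5 of the internal starts, and 3 narrower peaks of 358 to 1613 bp lay further into the gene. Of 29321 bp under RING1 peaks, 98.6% were also under the RNF2 peak of set A, and they made up 88.9% of it. RING1 peaks covered 8 of the 9 starts.

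RING1 of set B was not missing from the PAX6 domain but lay upstream of the assigned window. It formed 3 peaks inside the RNF2 peak of set B, all 5′ of the gene: 949 bp at 3.1 to 4.0 kb upstream of the start, 1099 bp at 5.9 to 7.0 kb, and 1874 bp at 8.5 to 10.4 kb. Their folds were 4.38, 3.89 and 4.47, ranking 388th, 628th and 340th of the 659 peaks. The nearest stood 1059 bp beyond the 2 kb flank. All 3 lay over PAX6-AS1, a long noncoding RNA gene (31816566 to 31887041) that overlaps the 5′ end of PAX6, and the farthest also over PAUPAR, another noncoding gene (31826567 to 31829303). With flanks of 5 kb, RING1 of set B was at 8 PAX genes, PAX6 included, beside 1.78% of all genes. When any RING1 peak under an assigned RNF2 peak of set B was counted, 8 members again had it, beside 1.63% of all genes.

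**Figure D2:**
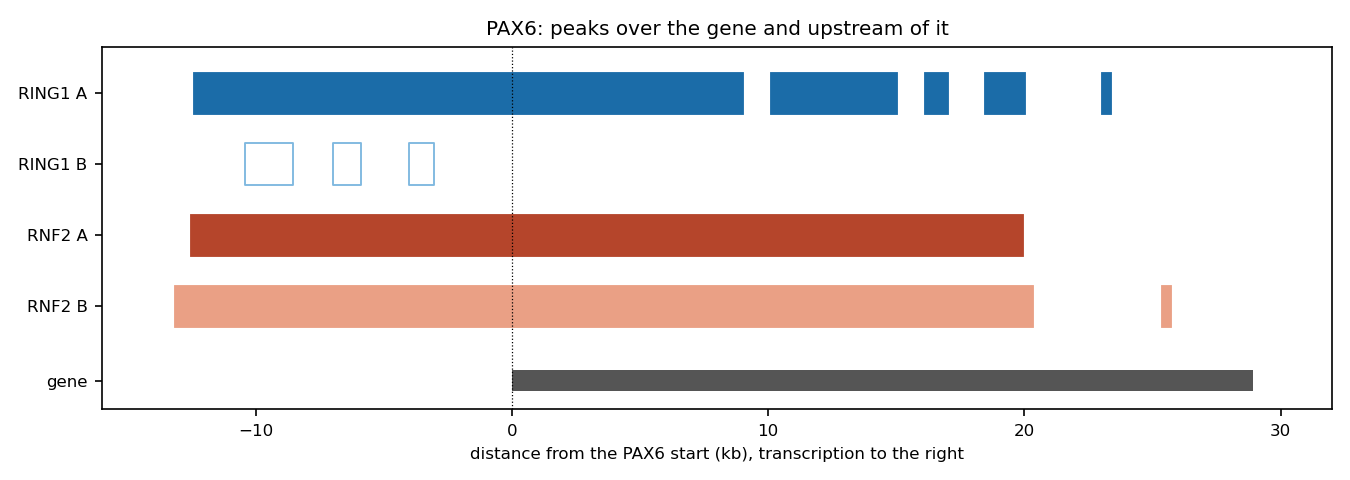
Peaks of the 4 lists (rows) along PAX6, with distance from the most upstream start in kb on the horizontal axis and transcription to the right. Filled bars are peaks assigned to the gene, open bars are RING1 peaks under its RNF2 peaks but outside the 2 kb flank, and the grey bar is the gene. The RING1 peaks of set B all lie between 3.1 and 10.4 kb upstream, whereas the other lists cover the start.

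Compared with PAX6, the 7 other members with peaks carried RING1 of set B closer to or over the gene. Under the RNF2 peaks of set B lay 24 RING1 peaks in all, of which 12 overlapped a PAX gene. PAX1, PAX2, PAX3, PAX7, PAX8 and PAX9 had at least 1 such peak over the gene itself. At PAX1 and PAX8 this was a peak of 425 and 271 bp, with a −log10 q of 1.44 and 1.42. The lowest value in the list was 1.08, and the 3 peaks at PAX6 had 1.33 to 2.15. In PAX5 the single RING1 peak also lay wholly upstream, from 1.9 to 5.2 kb, and it was assigned only through the flank. PAX6 therefore shared its upstream placement with PAX5, and a single gene set beside 7 allowed no test. Of the RNF2 bases of set B, RING1 took 11.6% at PAX6, beside a range from 4.66% at PAX8 to 56.1% at PAX3.

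**Figure D3:**
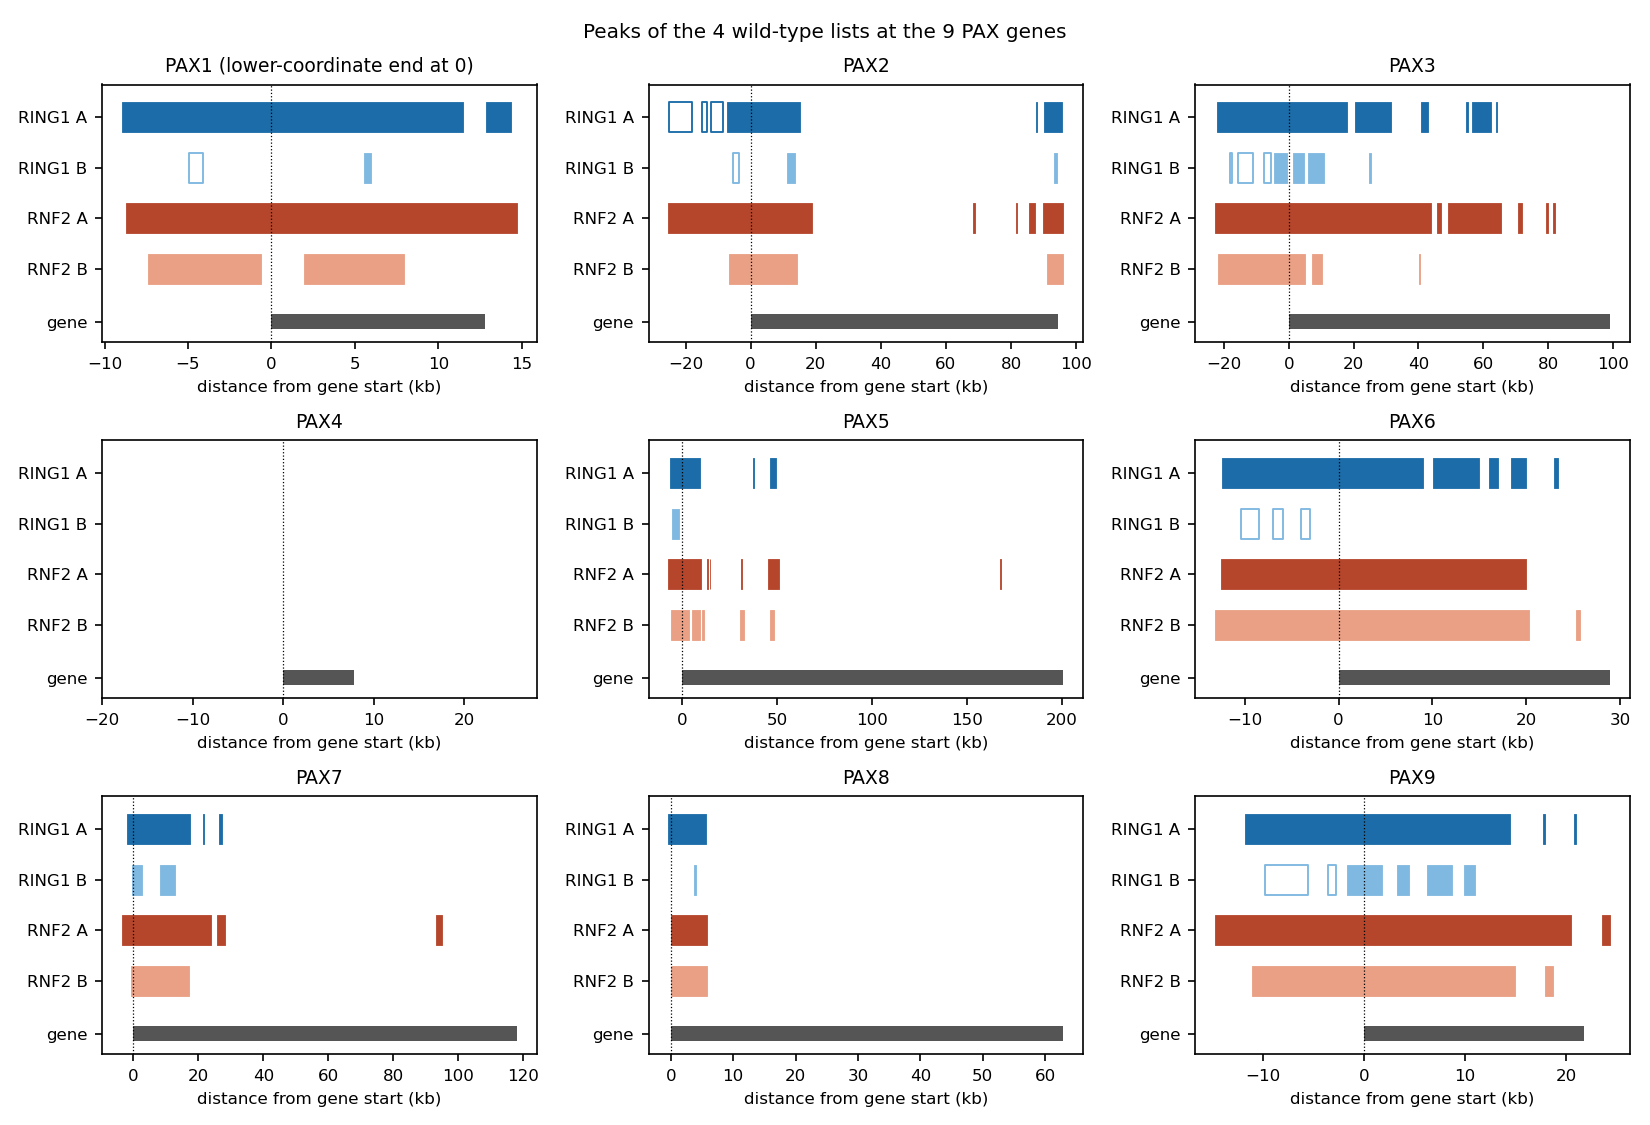
Peaks of the 4 lists at each of the 9 PAX genes, with distance from the most upstream start in kb (for PAX1, from the lower-coordinate end) on the horizontal axis. Filled and open bars are as for PAX6, and the grey bar is the gene. RNF2 domains of 6 members cross the start in both sets, those of PAX8 lie just inside it, and the PAX4 panel is empty.

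Among the neural crest and muscle genes, PAX3 had the broadest domains of the family in set A and the strongest RING1 peak of a whole list. PAX3 lies on the minus strand of chromosome 2 (222199887 to 222298998). RNF2 formed a set A peak reaching 22.8 kb upstream and 43.8 kb into the gene, which ranked 5th of 16263 by width and had a fold of 15.1. In set B the main RNF2 peak was 27061 bp with a fold of 7.22, and 81.0% of it lay upstream of the start. RING1 had 6 peaks in set A, the widest 39946 bp with a fold of 11.1. In set B a RING1 peak of 4670 bp, at 6.1 to 10.7 kb inside the gene, had a fold of 6.62 and ranked 1st of 659. The upstream part of the PAX3 domain also covered the noncoding genes CCDC140 and CT75 (the latter in part). The same part covered RNF228, a protein-coding gene 15.2 kb away, so some of the domain's width lies over neighbours.

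PAX7, the close relative of PAX3, had its domain mostly inside the gene. It lies on the plus strand of chromosome 1 (18630846 to 18748866). The RNF2 peak was 27369 bp in set A (fold 13.8) and 17938 bp in set B (fold 6.77), and reached 3.6 and 0.9 kb upstream. RING1 of set A formed a peak of 19260 bp with a fold of 10.4. In set B a RING1 peak of 3140 bp covered the start, from 0.4 kb upstream to 2.7 kb downstream, with a fold of 6.06 that ranked 5th of 659. Both members of this pair thus had RING1 of set B within the top 5 peaks by fold. The nearest coding genes, KLHDC7A at 144.9 kb and TAS1R2 at 90.7 kb, had no peak in any list.

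The PAX2, PAX5 and PAX8 group was uneven. PAX2 (chromosome 10, 100735396 to 100829944, plus strand) carried a domain at each end. Around its start the RNF2 peak was 44014 bp in set A (fold 11.4), reaching 25.3 kb upstream, and 20970 bp in set B (fold 6.31). At its 3′ end a separate RNF2 peak of 6217 bp in set A (fold 8.51) and 4919 bp in set B (fold 5.53) crossed the end of the gene. RING1 was there too, as 5370 bp across the end in set A (fold 6.47) and as 775 bp ending 0.5 kb before it in set B (fold 4.21). Among the members with a known strand, an RNF2 peak across the 3′ end in both sets was seen at PAX2 only.

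PAX5 (chromosome 9, 36833269 to 37034268, minus strand) is the longest member at 201.0 kb, and its widest peaks sat at the 5′ end. RNF2 had 17158 bp in set A (fold 10.5). In set B its main peak of 9672 bp had a fold of 8.64, the highest of any PAX gene in that list, ranking 29th of 5901. Inside the gene both sets had RNF2 at 45.4 to 51.1 kb (set A) and 46.5 to 48.6 kb (set B), and again at 31.3 to 31.7 kb and 30.8 to 32.5 kb. In all, RNF2 covered 9.32% and 6.99% of the PAX5 window.

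PAX8 (chromosome 2, 113215997 to 113278921, minus strand) had the narrowest peak and the lowest fold among members with peaks in both RNF2 lists and in RING1 of set A. RNF2 had 1 peak in each set, 5783 bp with a fold of 5.99 in set A and 5820 bp with a fold of 4.93 in set B. They began 68 and 37 bp downstream of the annotated start and ran to 5.8 and 5.9 kb into the gene. RING1 of set A (6013 bp, fold 4.77) crossed the start, and RING1 of set B was a peak of 271 bp with a fold of 4.07, ranking 558th of 659.

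In the remaining pair, PAX9 had the stronger signal. PAX9 (chromosome 14, 36657568 to 36679362, plus strand) had RNF2 peaks 35248 bp wide in set A (fold 14.7) and 26077 bp wide in set B (fold 7.76), which reached 14.7 and 11.1 kb upstream. RING1 had 26232 bp in set A (fold 9.73). In set B 4 RING1 peaks of 1087 to 3545 bp were assigned to PAX9, of which the widest covered the start, with a fold of 5.15. RNF2 covered 88.3% of the window in set A and 68.6% in set B. The set A peak also met the end of SLC25A21, which overlaps PAX9.

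PAX1 (chromosome 20, 21705664 to 21718481) is the shortest member with peaks, and RNF2 covered all of its gene body in set A. That peak was 23412 bp wide with a fold of 8.57. In set B RNF2 was split into peaks of 6749 and 5974 bp, with folds of 5.00 and 4.79, on either side of the lower-coordinate end. RING1 had 20448 bp in set A (fold 5.78) and 425 bp in set B (fold 4.05). The nearest coding gene below it was NKX2-2, at 183.0 kb, which had peaks in all 4 lists, as did NKX2-8, 74954 bp from PAX9.

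PAX4, the islet gene on chromosome 7 (127610292 to 127618142, minus strand), stood apart from its relative PAX6. The nearest peaks lay 19.4 kb (RNF2) and 22.3 kb (RING1) from its window in set A and 31.3 kb (RNF2) in set B, while the nearest RING1 peak of set B was 2164.8 kb away. FSCN3, the nearest coding gene at 8.1 kb, had no peak either, and SND1 at 34.1 kb on the other side had RING1 of set A and RNF2 of both sets. PAX4 is also the shortest member, at 7.9 kb.

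Set side by side, PAX6 ranked 4th of the 8 members with peaks by width in RNF2 of set A (behind PAX3, PAX2 and PAX9), 1st in RNF2 of set B and 4th in RING1 of set A. By fold it was 5th, 2nd and 4th in these lists. Its values therefore lay within the range of the other members in RNF2 of set A and RING1 of set A. Over the 8 members the widest RNF2 peak ranged from 5783 to 66554 bp in set A and from 5820 to 33514 bp in set B. RING1 ranged from 6013 to 39946 bp in set A, and over 7 members from 271 to 4670 bp in set B.

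**Figure D4:**
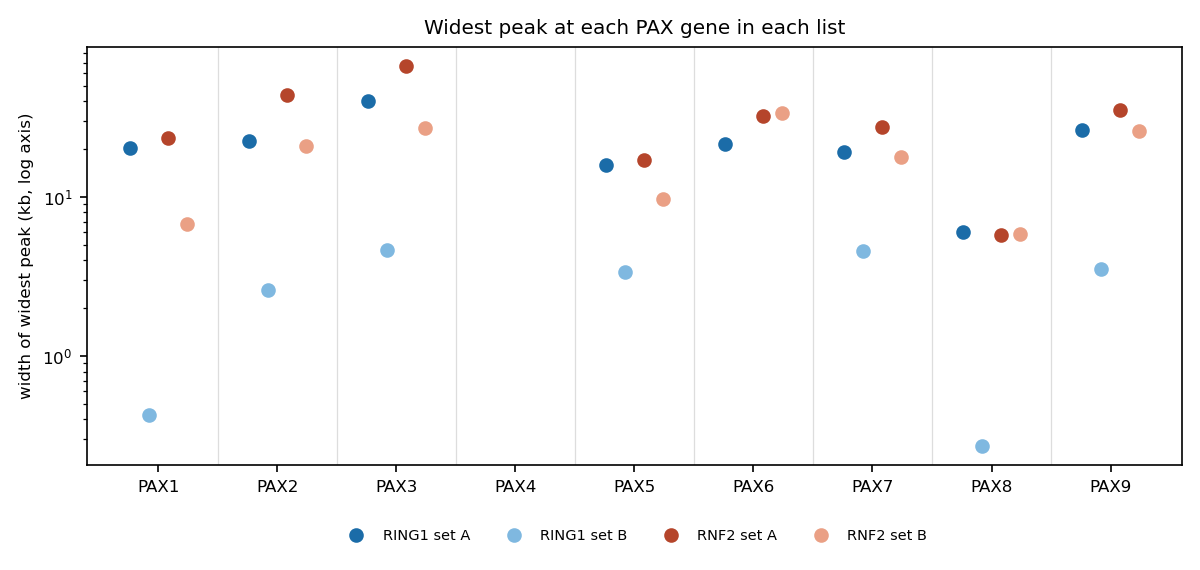
Width in kb (log axis) of the widest assigned peak at each PAX gene, with 1 point per list. PAX6 is the highest RNF2 point of set B, at 33.5 kb, has no RING1 point for set B, and PAX8 is the lowest in both RNF2 lists.

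The widest peak of each of the 8 members stood near the top of its list by width, except in RING1 of set B. A gene's widest or highest of up to 6 peaks was ranked against single peaks, which favours a high rank. PAX windows were also longer than most, and the share of all genes reaching these ranks was not computed. The widest RNF2 peak of each of the 8 members was in the top 3.75% of its list in set A and the top 5.61% in set B, and the widest RING1 peak of set A in the top 2.96%. For RING1 of set B the ranks spread over nearly the whole list, from the top 10.9% (PAX3) to 98.8% (PAX8). By fold, PAX3, PAX5, PAX6, PAX7 and PAX9 were in the top 0.31% to 2.05% of the RNF2 lists and of RING1 of set A. PAX2 was at 0.916% to 2.83% there, PAX1 at 2.22% to 8.69% and PAX8 at 9.27% to 21.3%.

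**Figure D5:**
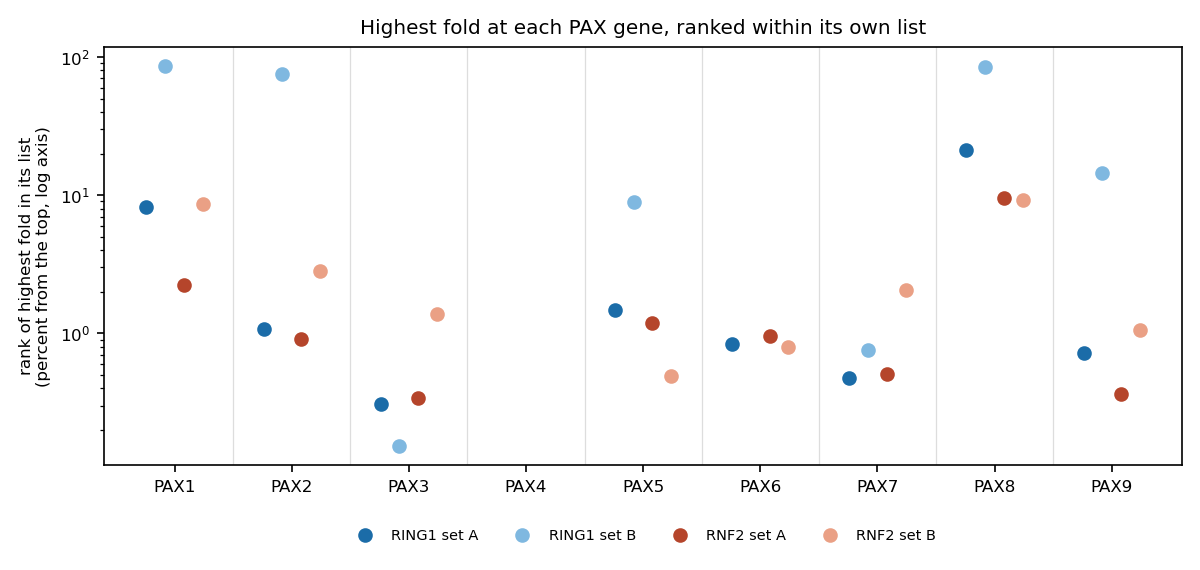
Rank of the highest fold at each PAX gene within its own list, as a percent from the top on a log axis, so that lower points are stronger, with 1 point per list. RING1 of set B ranges from 0.152% at PAX3 to 86.0% at PAX1, while PAX6 lies between 0.796% and 0.953% in the 3 lists where it has a peak.

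RNF2 peaks as wide as that of PAX6 all held RING1 of the same set. All 37 RNF2 peaks of set A that were at least as wide as that of PAX6 overlapped a RING1 peak of the same set, as did 61.4% of all RNF2 peaks there. In set B all 12 such peaks did, that of PAX6 included, beside 5.58% of all. At the narrower width of the PAX8 peak, 607 of 610 did in set A, but 228 of 331 (68.9%) in set B. A wider peak has more room to meet another, which was not held fixed.

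The authors' consolidated regions held 11 regions at PAX genes. These regions have the edges, within 1 bp, of the union of touching peaks of the 4 lists, and each of the 4255 had RING1 or RNF2 in both sets. PAX6 had a single region of 33515 bp, PAX5 had 3 and PAX2 had 2, and PAX4 had none.

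With PAX6 included, 4092 genes had peaks in the same 3 lists and none in RING1 of set B. PAX6 and 1 gene that shared a peak with it were left out. Among the rest, the genes most like PAX6 were found by the Euclidean distance over 6 values. These were log2 of the highest fold and of the widest peak in each of the 3 lists. The 5 closest were ZIC2 (distance 0.835), FOXB1 (0.838), FOXF2 (0.969), BUB3 (0.985) and LHX2 (1.02). ZIC2 and LHX2 are factor genes of forebrain progenitors, and FOXB1 and FOXF2 are forkhead genes. BUB3 encodes a spindle checkpoint protein. Where the peaks lie along these 5 genes was not described, and an assigned peak can belong in part or mainly to a neighbour. This choice of genes rests on the 2 kb window, since RING1 of set B lay within the PAX6 domain. Without the condition on RING1 of set B, a choice made after seeing the data, 4394 genes were compared and PAX9 was the nearest (0.624), with ZIC2 6th, PAX2 11th (0.879) and PAX7 25th (1.03). ZIC2 had RNF2 peaks of 44327 bp in set A and 42424 bp in set B, with folds of 9.63 and 6.99. LHX2 had 25973 and 22621 bp, with folds of 8.33 and 6.56.

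Partner genes of PAX factors also carried RNF2, with RING1 of set B at fewer of them but at a larger share than over all genes. Sine oculis homeobox proteins bind DNA, and EYA and DACH proteins are their cofactors in a network with PAX genes in eye, ear, kidney and muscle. The set A lists had RNF2 at 12 and RING1 at 10 of 12 such genes (60.7% and 50.5% of all genes). The set B lists had them at 11 and 3 (25.2% and 1.58% of all genes). SIX6, an eye gene, had RNF2 folds of 15.2 and 7.74 and RING1 of set B at 5.43. SIX2, a kidney progenitor gene, had RNF2 folds of 8.64 and 5.78 and RING1 of set B at 4.24. SIX3, a forebrain and eye gene, had RNF2 peaks of 21719 and 21554 bp and no RING1 in set B.

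Homeobox genes of the paired class that lack a paired domain are the nearest relatives by their second DNA-binding domain. Of 32, RNF2 was at 26 and 23 in sets A and B (60.7% and 25.2% of all genes) and RING1 at 27 and 12 (50.5% and 1.58%). PITX1 had RNF2 folds of 15.2 and 9.64, GSC 16.2 and 9.30 and SHOX2 18.7 and 8.85, and these 3 had RING1 in set B.

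Of 27 neural progenitor factors, RNF2 was at 26 and 20 (60.7% and 25.2% of all genes) and RING1 at 26 and 6 (50.5% and 1.58%). Besides ZIC2 and LHX2, FEZF2, a gene of forebrain progenitors and deep-layer neurons, had RNF2 folds of 8.85 and 6.97 and no RING1 in set B. TFAP2C, which encodes an AP-2 factor, had 10.2 and 6.72 with RING1 of set B at 4.61. As in the other lists, the genes named so far were among those with the largest smaller-of-both RNF2 fold, and they do not stand for the whole list. HES5 had no peak in any list. NES, VIM and FABP7 had no RNF2 in set B, and their widest RNF2 peaks of set A were 2363, 1904 and 1015 bp. Other neural progenitor markers went the other way, since SOX1, HES1, SOX2 and MSI1 had RNF2 in both sets. Their widest RNF2 peaks were 22055, 13162, 2700 and 2246 bp in set A and 15195, 3009, 5041 and 450 bp in set B. In RING1 of set B the share was 22.2% of the neural progenitor factors, 25% of the PAX partner genes, 37.5% of the paired-class genes and 77.8% of the PAX genes. The PAX share rises to 88.9% with flanks of 5 kb, where the other 3 keep their values. These lists differ in gene length and share loci, and their differences were not tested.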

How the data were processed

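Libraries came from an EpiCypher CUTANA kit, per the labels' protocols. Build hg38 and, without roles, MACS2 2.2.9.1, deepTools 3.5.2, BWA 0.7.17, Picard 2.8.1, SAMtools 1.9 and bedtools 2.30.0 stand in the submitters' processing notes. Each deposited broad peak list gives, per peak, the authors' fold enrichment as a linear ratio, and −log10 of its q-value. The control, depth and calling options are not given in the sources used here. Since lists differ in length, counts and ranks are read beside those of all genes in the same list.

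Autosomal, X and Y peaks were assigned to RefSeq gene bodies (GRCh38.p14) with 2 kb flanks. The highest fold and the widest peak stand for a gene. Strand and starts came from the RefSeq promoter table, in which 8 of the 9 members were matched. The overlap step recovered 200 of 200 genes planted among 20037 in a test on simulated data. The rule for members uses names only, but the family and the gene lists were chosen with earlier results of these data known. Besides all PAX genes, the text names neighbours, genes under PAX peaks, the 5 genes nearest to PAX6 in pattern and 4 per list with the largest smaller-of-both RNF2 fold, except genes not reported here. Alternatives were a −log10 q of at least 5, equal list lengths, other windows and overlaps, merging within 1 kb and each set alone. Counting RING1 peaks under RNF2 peaks was chosen after seeing the data. Python 3.11.15, numpy 2.4.6, pandas 2.3.3 and matplotlib 3.10.9 were used. Protein sequences were not used here.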

Additional observations from a re-analysis of the deposited data

How the results depend on the processing

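Of 26 recounts of PAX genes per list, 25 stayed within 1.5 times the value reported. The exception was a −log10 q of at least 5, which leaves 7 peaks in RING1 of set B: 1 PAX gene, PAX3, kept one, and 1 was in both RING1 sets. Without a flank, or with at least 50% of the peak in the window, PAX5 lost its RING1 peak of set B, leaving 6 members. All genes stood at 1.32% and 1.52% there. With the gene ends only, PAX5 kept it and PAX1 and PAX8 lost theirs, leaving 5 (1.32% of all genes). With flanks of 5 kb PAX6 gained one (1.78% of all genes). Each set alone gave 8 and 7 members for RING1 and 8 and 8 for RNF2. By coverage of the window in place of width, PAX6 was 3rd in RING1 of set A and 3rd in RNF2 of set A. Where a peak was left, 141 of 142 recomputed widths, all 142 folds and 104 of 111 coverage values stayed within 1.5 times the value reported. For each kind of value, 13 recomputations left no peak and are not in these counts. The stability of width and fold was largely built in, since the widest peak and highest fold stand for a gene and most settings keep that peak. Equal list length also leaves RING1 of set B, the shortest list, unchanged. The width that moved was that of PAX1 in RING1 of set B, from 425 to 811 bp with flanks of 5 kb. With lists of equal length, coverage fell from 43.7% to 8.14% at PAX1 in RNF2 of set B and from 57.3% to 33.4% at PAX6 in RING1 of set A. With 250 bases before the start, 3 PAX promoters lay above the median CG count.

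The other gene lists lost members under stricter calling, as did all genes. The share of all genes with a peak was 3.94% (RING1 of set A), 4.15% (RNF2 of set A) and 3.78% (RNF2 of set B) with lists of equal length, and 8.74% and 0.0349% (RING1 of sets A and B) and 17.1% and 2.7% (RNF2) at a −log10 q of at least 5. With lists of equal length, RING1 of set A was at 5 PAX partner genes (sine oculis homeobox, EYA and DACH), 7 neural progenitor factors and 13 paired-class genes, and RNF2 of set A at 7, 12 and 15, with RNF2 of set B at 5 PAX partner genes. At a −log10 q of at least 5, RING1 of set B was at 0, 0 and 1 of the 3 lists' genes, RING1 of set A at 13 neural progenitor factors and 15 paired-class genes, and RNF2 of set B at 5 PAX partner genes and 14 paired-class genes. With at least 50% of the peak in the window, RNF2 of set A was at 17 neural progenitor factors, beside 59.4% of all genes. No paired analysis was possible because no result comes from a test, though RING1 and RNF2 peaks were overlapped within each set. Depth is not known, and its part in a missing peak was not tested.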
